A study of Mus musculus with 18 samples.

Results

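Of 45267 regular array probes, 48 were selected as lower in regulatory (Treg) than in conventional (Tconv) T cells in each of 3 array sets. In each set every Treg array gave a lower intensity than any Tconv array, and every Tconv array detected the probe. The sets were brown adipose tissue (BAT) of mice at 30°C (warm BAT), BAT of mice at 12°C (cold BAT) and spleen of mice at 30°C. The 48 probes were selected on these intensities, quantile-normalized over the arrays and on the log2 scale: a probe also had to be detected on all 9 Tconv arrays (detection p-value below 0.05 on each), as 7612 probes were. Each Treg against Tconv value of the 48 probes is therefore a description of the selection and carries no test.

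RNA was hybridised to 18 arrays in 6 groups of 3, with Treg and Tconv cells in each set. The labels give all groups the C57BL/6 background and the genotype Foxp3-GFP-DTR-CD90.1, with Tconv cells as CD4+Foxp3- cells. The study's methods instead describe wild-type C57Bl6 females, bought at 8 weeks of age and kept for 2 weeks at 30°C, with the cold group then moved to 12°C for 2 days, and a sort on CD4 and CD25. The values do not settle which description holds, and how the animals of a temperature were divided over its arrays is not given in the sources used here. The study describes spleen and warm BAT Treg cells as taken from the same mice, so these groups are not independent, but which arrays share mice is not stated.

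Treg cells are CD4 T cells that depend on the transcription factor Foxp3 and restrain other immune cells, while Tconv cells include the naive and helper CD4 T cells. Treg cells are known to reside in adipose tissue as well as in lymphoid organs, and BAT is the fat depot that produces heat in the cold. Transcripts that are lower in Treg than in Tconv cells are a known part of the difference between these lineages. The deposited table gives no gene for a probe, so the 48 probes are described by their Illumina identifiers, no role can be given for them, and the labelled cell types could not be checked against Foxp3 or other markers.

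Facts of the whole series bear on all values below. On each BeadChip (a slide of 6 arrays) the Tconv arrays held positions A to C and the Treg arrays D to F, so cell type and position cannot be told apart. Each of the 3 BeadChips held 1 set, so tissue or temperature and BeadChip cannot be told apart either. From 35.7% to 42.2% of probes were detected on the BAT arrays and 27.8% to 35.1% on the spleen arrays, but 18.7% to 24.9% of negative control probes were also below the same detection p-value. In bulk RNA of sorted cells, fewer cells of a type and less RNA per cell cannot be told apart.

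Among the 7612 probes detected on all Tconv arrays, 13.9% had all Treg values below all Tconv values in warm BAT, 22.5% in cold BAT and 7.08% in spleen, and the 48 selected probes were those that did so in all 3 sets. Dropping the detection condition added 7 probes and gave 55. The rule turned round, for probes higher in Treg cells and detected on all 9 Treg arrays, held for 54 probes. Signals are given from here on after background correction (normalized log2 signal, where a difference of 1 is 2-fold and probes at background lie near 5). In the Treg groups 33 of the 48 probes were detected on all 9 arrays, while 1 was detected on none.

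The selected probes ranged from no detected signal in Treg cells to differences close to the spread of the arrays. In warm BAT the Treg minus Tconv difference ran from -3.39 to -0.15 with a median of -0.80, against a median of -0.03 over all 17395 probes tested. In cold BAT it ran from -2.92 to -0.14 with a median of -0.83, against -0.08. In spleen it ran from -3.49 to -0.20 with a median of -0.99, against 0.01. The 7612 probes detected on all Tconv arrays had medians of -0.11 in warm BAT, -0.25 in cold BAT and -0.04 in spleen. Setting the undetected Treg groups of 6 probes at their detection floor left the medians of the 48 probes at -0.80, -0.83 and -0.99. It moved the end of the spleen range to -3.41. Without background correction the medians were -0.48, -0.48 and -0.67, and with arrays scaled to their median in place of quantile normalization -0.63, -0.46 and -1.08. The measured difference was over 2-fold in all 3 sets for 14 probes, in 2 sets for 9, in 1 set for 5 and in none for 20, and with the floor in 1 set for 4 and in none for 21.

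**Figure D1:**
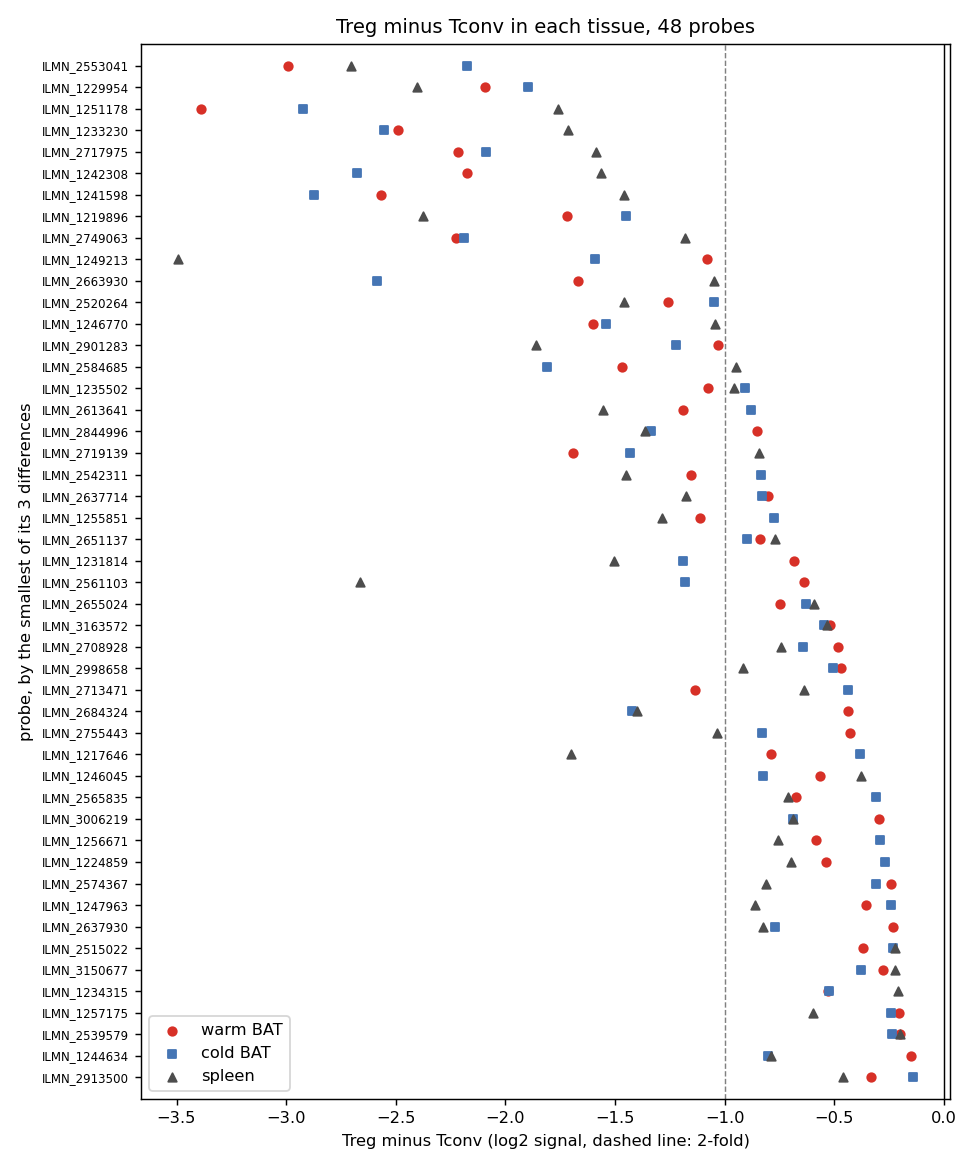
Treg minus Tconv difference of normalized log2 signal (horizontal axis) for each of the 48 probes (vertical axis, ordered by the smallest of the 3 differences), with 1 marker for warm BAT, cold BAT and spleen (means of 3 arrays per cell type). All markers lie below 0, as the selection requires; 14 probes have all 3 markers beyond the dashed line at 2-fold.

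The probe with the largest smallest difference was ILMN_2553041. On the warm BAT arrays it gave 8.14, 9.04 and 8.69 in Tconv cells and 5.28, 4.81 and 6.80 in Treg cells. On the cold BAT arrays it gave 9.30, 8.62 and 7.94 in Tconv cells and 5.39, 7.53 and 6.41 in Treg cells. On the spleen arrays it gave 9.96, 9.87 and 10.59 in Tconv cells and 8.93, 4.94 and 8.44 in Treg cells. The Treg arrays lay below the Tconv arrays of their set, but replicate 2 of spleen Treg cells stood at background while the other 2 replicates were bright. The differences were -2.99, -2.18 and -2.70 in warm BAT, cold BAT and spleen (standard error 0.85 each).

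ILMN_1229954, second in this order, varied less between arrays. Its Tconv values were 7.65, 7.61 and 7.46 in warm BAT, 8.10, 7.12 and 7.86 in cold BAT, and 8.37, 8.70 and 8.16 in spleen. Its Treg values were 6.02, 5.14 and 5.30, then 5.99, 6.15 and 5.24, then 6.68, 5.62 and 5.71 in the same sets. Every Treg array was lower than every Tconv array, also across sets, and the differences of -2.09, -1.90 and -2.40 (standard error 0.34) were alike in size.

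ILMN_1251178 had the largest difference of the 48 probes in warm BAT and in cold BAT. Its Tconv values were 9.49, 8.97 and 9.11 in warm BAT, 8.72, 8.73 and 8.74 in cold BAT, and 7.63, 6.15 and 6.94 in spleen. Its Treg values were 5.52, 5.53 and 6.35, then 5.99, 6.17 and 5.27, then 5.21, 5.04 and 5.198. The Treg arrays were low in every set, while the Tconv arrays were high in BAT and intermediate in spleen. The differences were -3.39, -2.92 and -1.76 (standard error 0.33).

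For ILMN_2717975 the Treg signal in BAT was at background. Its Tconv values were 7.97, 7.11 and 6.53 in warm BAT, 7.40, 7.26 and 6.52 in cold BAT, and 6.82, 7.15 and 7.15 in spleen. Its Treg values were 5.07, 4.98 and 4.91, then 5.01, 4.98 and 4.93, then 5.47, 5.17 and 5.73. No Treg array of BAT detected it, so its Tconv level was at least 4.34-fold higher in warm BAT and at least 3.92-fold higher in cold BAT; these bounds set the Tconv mean against the lowest signal of detected probes. In spleen, where Treg cells were detected on at least 1 array, the fold was 3.00.

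ILMN_1249213 was detected on all 9 Tconv arrays and on none of the 9 Treg arrays. Its Tconv values were 5.69, 7.47 and 5.33 in warm BAT, 6.80, 6.32 and 6.97 in cold BAT, and 8.10, 9.15 and 8.52 in spleen. Its Treg values lay between 4.95 and 5.16 on all 9 arrays, the level of undetected probes. The Tconv level was at least 2.04-fold higher in warm BAT, 2.99-fold higher in cold BAT and 10.7-fold higher in spleen. In warm BAT 2 of the 3 Tconv arrays were themselves within 1 log2 unit of the Treg arrays.

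ILMN_1246770 had the widest of the narrowest gaps between cell types, 0.875 on the intensity scale of the rule. Its Tconv values were 11.20, 10.91 and 11.01 in warm BAT, 11.30, 11.04 and 10.83 in cold BAT, and 11.33, 11.37 and 11.40 in spleen. Its Treg values were 9.32, 9.52 and 9.48, then 9.57, 9.50 and 9.48, then 10.39, 10.25 and 10.32. Replicates lay close together in every group, and Treg cells of spleen were above Treg cells of BAT on every array. The differences were -1.60, -1.54 and -1.05, with the standard error at 0.14.

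**Figure D2:**
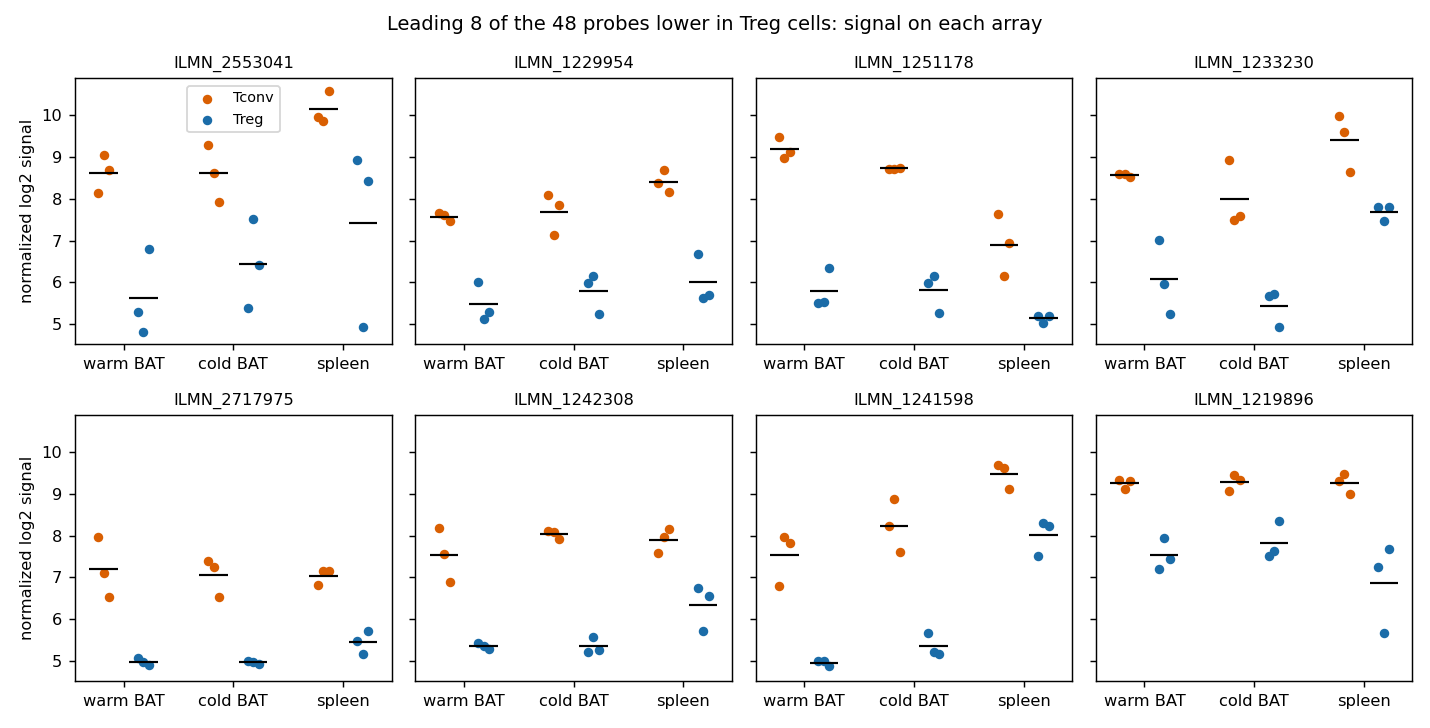
Normalized log2 signal (vertical axis, shared) on each of the 18 arrays for the first 8 of the 48 probes, with points for single arrays of Tconv and Treg cells in warm BAT, cold BAT and spleen and lines for the mean of 3 arrays. Treg points lie below the Tconv points of the same set; in ILMN_2553041 1 spleen Treg array is at 4.94 and the other 2 are at 8.93 and 8.44.

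Other leading probes fell into those with the larger difference in BAT and those with the larger difference in spleen. ILMN_1233230 (-2.49, -2.55 and -1.71 in warm BAT, cold BAT and spleen) and ILMN_1242308 (-2.18, -2.68 and -1.56) differed more in BAT. So did ILMN_1241598, with at least 5.43-fold in warm BAT, where its Treg arrays did not detect it, 7.33-fold in cold BAT and 2.75-fold in spleen. ILMN_1219896 (-1.72, -1.45 and -2.38) and ILMN_2561103 (-0.64, at least 2.07-fold higher in Tconv cells, and -2.66) differed more in spleen. For ILMN_1219896 the spleen Treg arrays gave 7.26, 5.68 and 7.68, and only replicate 2 lay below all Treg arrays of BAT. This array also had the lowest mean over the 48 probes among the spleen Treg arrays (6.86, against 7.25 and 7.14). Over the 48 probes the difference was largest in spleen for 24, in cold BAT for 13 and in warm BAT for 11. The largest of the 3 differences was over 2 times the smallest for 21 probes, with a median ratio of 1.92. These orders rest on the values that selected the probes and were not tested.

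Of the first 25 probes the remaining 14 were smaller or less even. ILMN_2749063 (-2.22, -2.19 and -1.18), ILMN_2663930 (-1.67, -2.58 and -1.05), ILMN_2520264 (-1.26, -1.05 and -1.46) and ILMN_2901283 (-1.03, -1.22 and -1.86) were over 2-fold in all sets. The smallest difference was between 0.77 and 0.95 for ILMN_2584685, ILMN_2613641, ILMN_2844996, ILMN_2542311, ILMN_2637714, ILMN_1255851, ILMN_2651137 and ILMN_1235502, in units of log2 signal. ILMN_2719139 had differences of -1.69 and -1.43 in BAT and was at least 1.69-fold higher in Tconv cells in spleen, where no Treg array detected it. ILMN_1231814 had differences of -0.68, -1.19 and -1.51. The other 23 probes had a smallest difference below that of ILMN_2561103, down to 0.14 for ILMN_2913500.

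In the limma fit over all tested probes, Treg cells were called lower (over 2-fold, adjusted p under 0.05) for 8 of the 48 probes in warm BAT, where 0.19% of all tested probes were called lower. In cold BAT 10 were called, against 0.339% of all probes, and in spleen 12, against 0.339%. The selection used this contrast, so nothing is read from these counts. They were 5 probes in all 3 sets, 3 in 2 sets, 9 in 1 set and 31 in none.

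How firmly the arrays were kept apart depended on the probe. Each value is a mean over 16 or more beads (median 42), and the bead to bead error of a value was 0.07 on the log2 intensity scale (median), while arrays of 1 group differed by 0.24 (median standard deviation before normalization). For 14 of the 48 probes the gap between the lowest Tconv and the highest Treg array was over 2 bead standard errors in every set, and for 27 at least 1 gap was under 1 bead standard error. Just inside the rule were ILMN_2574367, ILMN_1257175 and ILMN_1256671, with narrowest gaps of 0.0037, 0.0066 and 0.008 log2 units. Just outside were ILMN_1253910, ILMN_2638923 and ILMN_1230073, 3 of the 4 probes whose values tied at a gap of 0 after quantile normalization. After these 4 came ILMN_2657963, whose warm BAT arrays overlapped (gap -0.00484). ILMN_2662192 missed only the detection condition, with a detection p-value of 0.0507 on 1 Tconv array.

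The level of all 48 probes together and of the array controls is given beside these differences. Averaged over the 48 probes, the signal was 7.83 ± 0.04 (SD over 3 arrays) in Tconv and 6.78 ± 0.04 in Treg cells of warm BAT, 7.81 ± 0.14 and 6.72 ± 0.07 in cold BAT, and 8.25 ± 0.02 and 7.08 ± 0.20 in spleen. On intensities that were not normalized, the Treg minus Tconv difference of the 48 probes was -0.69 in warm BAT, -0.69 in cold BAT and -0.45 in spleen (log2). That of 14 housekeeping control probes was -0.24, -0.13 and 0.30, that of 936 negative control probes -0.08, -0.24 and 0.21, and that of 6 hybridisation controls -0.04, -0.02 and 0.04. With arrays scaled to their median in place of quantile normalization, 32 probes met the rule and 20 of them were among the 48. Of the first 10 probes 8 were kept. With that scaling the mean was lower in Treg cells for all 48 probes in warm BAT and in spleen but for 39 of 48 in cold BAT, where the median of all tested probes moved from -0.08 to 0.08.

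Between tissues, which the selection did not compare, 10 of the 48 probes were called in at least 1 cell type. The share of all tested probes called in at least 1 cell type is not given here. The comparison asks whether T cells of 1 lineage differ between warm BAT and spleen at the same housing temperature. In Tconv cells 6 of the 48 probes were lower in warm BAT than in spleen, against 0.759% of all tested probes, and 2 were higher, against 1.9%. In Treg cells 3 were lower, against 0.862%, and 2 were higher, against 2.54%. Among the 7612 probes detected on all Tconv arrays 2.96% were called in Tconv cells and 3.18% in Treg cells, while 16.7% and 10.4% of the 48 were. Of these 7612 probes, 113 were called lower and 112 higher in Tconv cells, and 139 lower and 103 higher in Treg cells. All tested probes were thus more often called higher than lower, while these probes were not. The probes were selected in part for being high in Tconv cells, and no test of the group was made.

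The 6 probes lower in Tconv cells of BAT differed in their levels. ILMN_1249213 (5.69, 7.47 and 5.33 in warm BAT Tconv, 8.10, 9.15 and 8.52 in spleen Tconv) fell by 2.42 (SE 0.41, limma adjusted p = 0.00631). ILMN_2561103 gave 5.79, 5.68 and 6.02 in warm BAT and 8.45, 8.20 and 7.43 in spleen, a difference of -2.20 (SE 0.31, limma adjusted p = 0.00173). ILMN_1241598 gave 6.79, 7.96 and 7.83 in BAT and 9.69, 9.62 and 9.11 in spleen, a difference of -1.94 (SE 0.34, limma adjusted p = 0.0084). In all 3 the BAT arrays lay below the spleen arrays without overlap. Probes that were not called, such as ILMN_2553041 and ILMN_1229954, were also without overlap between tissues in Tconv cells. The share of all tested probes without overlap is not given here, so lack of overlap, here and below, adds no support to a call.

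The other 3 had smaller differences and steadier arrays. ILMN_1247963 gave 6.55, 6.78 and 7.07 in warm BAT Tconv cells and 8.19, 8.01 and 8.61 in spleen Tconv cells, a difference of -1.47 (SE 0.18, limma adjusted p = 0.000509). ILMN_1235502 gave 7.81, 8.46 and 8.57 in BAT and 9.59, 9.44 and 9.55 in spleen, a difference of -1.25 (SE 0.26, limma adjusted p = 0.0208). ILMN_2574367 gave 5.99, 5.76 and 5.88 in BAT and 6.75, 7.21 and 7.01 in spleen, a difference of -1.11 (SE 0.18, limma adjusted p = 0.00529). The groups did not overlap, and all 3 calls were lost with median scaling of the arrays (limma adjusted p between 0.0807 and 0.219), which moved the median of all probes from -0.03 to 0.20. Without background correction their differences were under 2-fold, from -0.95 to -0.49. Without spleen Tconv replicate 2, ILMN_1235502 (adjusted p = 0.0502) and ILMN_2574367 (just under 2-fold) were also not called, and ILMN_1235502 was lost without warm BAT Tconv replicate 1 (adjusted p = 0.0934).

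The 2 probes higher in Tconv cells of BAT were ILMN_1251178 and ILMN_1231814. ILMN_1251178, whose arrays are given above, was 2.28 higher in warm BAT than in spleen (4.86-fold, SE 0.33, limma adjusted p = 0.00223). ILMN_1231814 gave 8.81, 9.28 and 9.16 in warm BAT and 7.35, 7.61 and 7.63 in spleen, a difference of 1.55 (2.94-fold, SE 0.33, limma adjusted p = 0.0225). The BAT arrays of both lay above all spleen arrays. For ILMN_1231814 the call was lost without any 1 of the 3 warm BAT Tconv arrays or without spleen Tconv replicate 2 (limma adjusted p from 0.0526 to 0.0866), with differences from 1.46 to 1.69.

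In Treg cells the 3 probes lower in BAT were ILMN_1241598, ILMN_2749063 and ILMN_1235502. ILMN_1241598 gave 5.00, 5.00 and 4.88 in warm BAT Treg cells, where no array detected it, and 7.51, 8.29 and 8.23 in spleen Treg cells, so its spleen level was at least 7.60-fold higher (limma adjusted p = 0.000233). ILMN_2749063 gave 4.94, 6.62 and 5.24 in BAT and 8.11, 8.34 and 8.35 in spleen, a difference of -2.67 (SE 0.59, limma adjusted p = 0.0222). ILMN_1235502 gave 7.04, 7.45 and 7.12 in BAT and 8.67, 8.20 and 8.84 in spleen, a difference of -1.37 (SE 0.26, limma adjusted p = 0.00916). All 3 were without overlap between tissues. ILMN_2749063 was not called without warm BAT Treg replicate 1 or 3 or spleen Treg replicate 2 (limma adjusted p from 0.0672 to 0.0927), and with median scaling neither it nor ILMN_1235502 was called (adjusted p = 0.104 and 0.428). With only the 6 arrays compared neither was called (limma adjusted p = 0.0523 and 0.0514). ILMN_2749063 was also lost without the detection filter (limma adjusted p = 0.0608), and ILMN_1235502 was under 2-fold without background correction (-0.85).

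The 2 probes higher in Treg cells of BAT were ILMN_1231814 and ILMN_2901283. ILMN_1231814 gave 8.51, 8.08 and 8.62 in warm BAT and 6.29, 5.15 and 6.63 in spleen, a difference of 2.38 (SE 0.33, limma adjusted p = 0.00123). ILMN_2901283 gave 7.20, 7.23 and 6.39 in BAT and 5.96, 5.16 and 5.67 in spleen, a difference of 1.34 (2.53-fold, SE 0.32, limma adjusted p = 0.0287). The tissues did not overlap for either probe. ILMN_2901283 was called under 6 of 14 settings, the reported one included, and was lost without warm BAT Treg replicate 1 or 2 or spleen Treg replicate 2 or 3 (limma adjusted p from 0.0545 to 0.114).

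Of the 10 probes called in Tconv or Treg cells, 3 were called in both: ILMN_1241598 and ILMN_1235502 lower and ILMN_1231814 higher in BAT. The shares of all tested probes called in either or in both cell types are not given here. Nothing is therefore read from these counts. The tissue differences of the 48 probes in Tconv and in Treg cells had a Pearson r of 0.68 and a Spearman rho of 0.73 over 48 probes (Pearson r over all tested probes 0.47), and 42 had the same sign (68.6% of all tested probes had). The points share the arrays' normalization and BeadChips, and the probes are not independent. The selection also required Treg below Tconv values in warm BAT and in spleen. The tissue differences of a selected probe in Tconv and in Treg cells are therefore not free of each other. How far this raised the correlation and the shared signs was not tested. All tested probes were not selected in this way, so nothing is read from the excess over them. Over the 48 probes the median difference was -0.36 in Tconv cells (13 positive, 35 negative) and -0.28 in Treg cells (15 positive, 33 negative), while the medians of all tested probes were -0.03 and -0.08. Median scaling turned the sign of both medians, to 0.07 and 0.05, but all tested probes then had medians of 0.20 and 0.18, so relative to all probes the 48 stood at -0.33 by quantile normalization and at -0.13 by median scaling in Tconv cells. In Treg cells these were -0.21 and -0.12. By quantile normalization the 7612 probes detected on all Tconv arrays had medians of -0.18 in Tconv and -0.24 in Treg cells. The 48 probes stood close to these in Treg cells. In Tconv cells they stood nearer to these than to all tested probes.

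**Figure D3:**
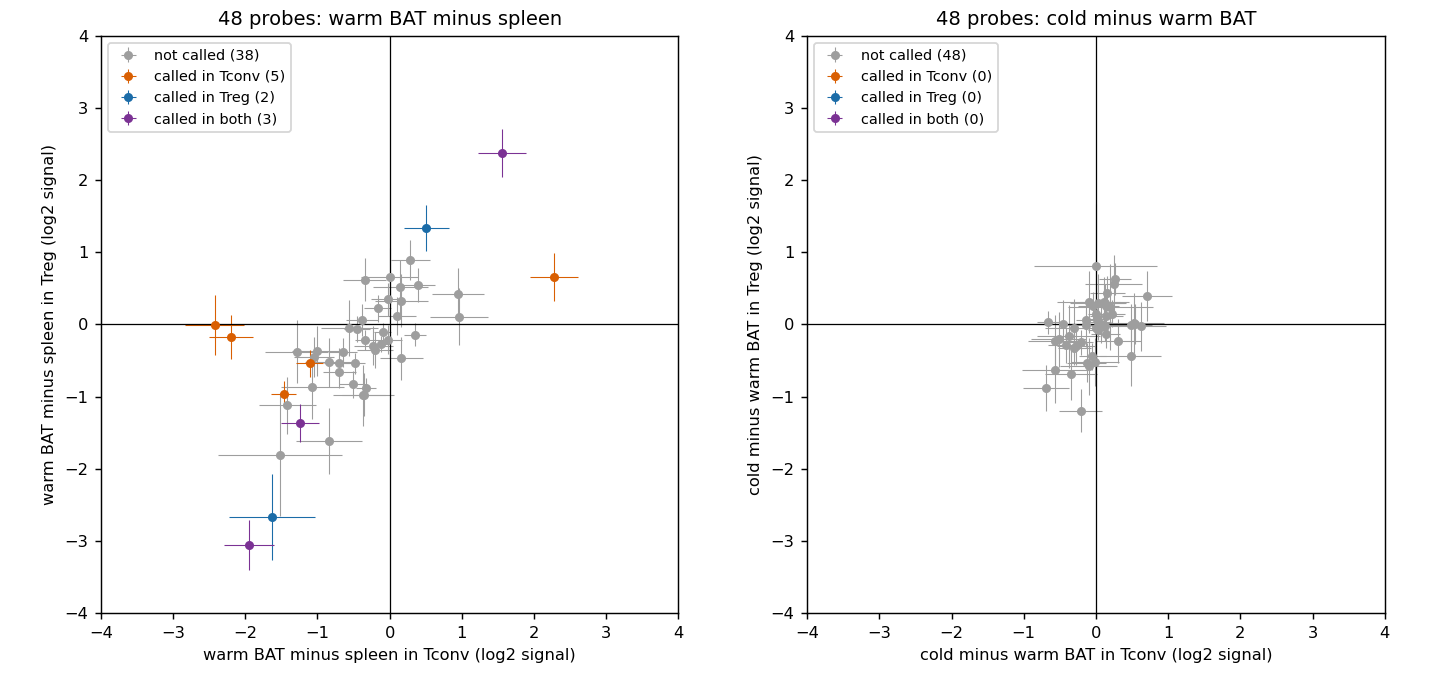
Difference of normalized log2 signal in Treg cells (vertical axis) against that in Tconv cells (horizontal axis) for the 48 probes, as warm BAT minus spleen (left) and cold minus warm BAT (right), with bars of 1 standard error from limma and colours for probes called over 2-fold at adjusted p under 0.05. On the left 10 probes are called, 3 of them in both cell types, and on the right none is.

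Between cold and warm BAT none of the 48 probes was called in either cell type. This comparison asks whether exposure to 12°C changed a cell type within BAT. In Tconv cells 0% of all tested probes were called higher and 0.00575% lower, and in Treg cells 0.0747% were called higher and 0.0115% lower, so few calls were made anywhere by limma. Without adjustment, at p under 0.05, limma had 2 of the 48 lower and 0 higher in Tconv cells, where 761 of all 17395 probes passed, and 3 lower and 1 higher in Treg cells, where 1041 passed. The methods' t-test gave 0 after Benjamini-Hochberg adjustment in both cell types. The medians over the 48 probes were 0.00 in Tconv cells (24 positive, 24 negative) and -0.01 in Treg cells (23 positive, 25 negative). With median scaling they were -0.20 in Tconv cells (9 positive, 39 negative), where the median of all probes was -0.08, and 0.02 in Treg cells (25 positive, 23 negative).

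The probe nearest to a call was ILMN_2684324 in Treg cells. Its Treg values were 7.47, 7.29 and 7.67 in warm BAT and 6.35, 6.43 and 6.06 in cold BAT, a difference of -1.19 (SE 0.30, limma adjusted p = 0.218). The cold arrays lay below all warm arrays. In Tconv cells the same probe gave 8.10, 7.73 and 7.90 in warm BAT and 7.70, 7.92 and 7.49 in cold BAT, with overlap between the groups. Of the probes with the widest difference between cell types, ILMN_1251178 differed by -0.46 in Tconv cells (SE 0.33), with every cold array below every warm array, and by 0.01 in Treg cells. ILMN_1249213 differed by 0.53 in Tconv cells (SE 0.41), with overlap. Neither was called. The 95% interval of the difference lay within 2-fold in either direction for 30 of the 48 probes in Tconv cells and 29 in Treg cells (median half-width 0.61), so for the others a 2-fold change with cold was within the error of 3 arrays per group.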

How the data were processed

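RNA (2.5 ng per array, amplified and labelled per the labels) was hybridised to 18 Illumina arrays (MouseWG-6 v2.0 Expression BeadChip). The authors deposited the mean bead intensity of each probe, not normalized and not background-subtracted, and, per probe and array, a detection p-value whose calculation is not given in the sources used here. They also deposited the standard deviation and number of beads, used here for the bead error; 36 further columns of bead counts were not used. The file pairs no probe with a gene, and no such table was used here, so gene lists chosen for this work were not applied and no sequence is shown.

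The rule was applied to log2 intensities quantile-normalized over the 18 arrays. For all other values, the neqc function of limma 3.58.1 in R 4.3.3 was applied to 45267 regular probes with 936 negative controls (background correction on the negative controls, offset 16, quantile normalization, log2), leaving out 34 other controls. A probe was tested if every array of 1 or more groups detected it at p under 0.05 (17395 probes, with all 48 selected probes, which pass through their Tconv groups). A mean per group was fitted (12 residual degrees of freedom), and a call needed more than 2-fold and a Benjamini-Hochberg adjusted p-value under 0.05 over all tested probes. Nothing states that the arrays of a group came from separate animals, so p-values measure the spread between arrays, which may be technical, and the 3 arrays per group limit the precision. With 3 against 3 arrays an exact permutation test could not go below p = 0.1.

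The 48 probes, the tests and the lists were chosen with earlier results of these data known. Probes were named if among the first 25 by the smallest of the 3 Tconv minus Treg differences, if called in a tissue or temperature comparison, or if next to the limits of the rule; ILMN_2662192 and ILMN_2684324 were named after their values were seen. Scripts were tested on simulated data. Alternatives covered background correction, offset, scaling, the detection filter, the arrays fitted, a replicate block, the methods' t-test and leaving out each array. Figures were drawn with Python and matplotlib.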

Additional observations from a re-analysis of the deposited data

How the results depend on the processing

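The number of probes meeting the rule, 48, was 32 with median scaling of the arrays (20 shared) and 47 at a detection p-value under 0.01. Leaving out 1 array gave 50 to 90 probes, always with the 48 among them, since the rule then asks less; the count was 90 without spleen Tconv replicate 3, 88 without replicate 2 and 73 without replicate 1, without spleen Treg replicate 1 or without warm BAT Tconv replicate 1. Of the 2 probes higher and 6 lower in warm BAT than spleen in Tconv cells, 3 lower remained without background correction and 3 with median scaling. Without the detection filter 1 was higher. With only the 6 arrays compared 1 was higher and 2 were lower (141 and 21 of all probes), and only 1 of these 2 was among the 6 lower probes above. The methods' t-test after adjustment called 0 higher and 0 lower. Over 2-fold at an unadjusted p under 0.05 it had 2 higher and 9 lower, against 907 of all 17395 probes. Leaving out 1 array gave 1 to 3 higher and 4 to 8 lower. Of the 2 higher and 3 lower in Treg cells, 1 was higher without background correction, with an offset of 50 or without the filter. Without background correction or without the filter 2 were lower. Median scaling gave 8 higher and 1 lower, while the calls over all probes went from 442 to 961 higher and from 150 to 8 lower (in Tconv cells from 331 to 685 and from 132 to 16). The 6 arrays compared gave 0 higher and 1 lower (238 and 42 of all probes), and the adjusted t-test 0 and 0. Over 2-fold at an unadjusted p under 0.05 the t-test had 2 higher and 4 lower, against 981 of all probes. Leaving out 1 array gave 1 to 3 higher and 3 to 6 lower, with 6 lower without spleen Treg replicate 2. Only 2 of those 6 were among the 3 lower probes above. Without warm BAT Treg replicate 1 or 3 the count stayed at 3 lower, but only 2 of them were the same probes. The cause was not tested. No probe of the 48 was called between cold and warm BAT under any alternative, including without each array (0 to 0). Background-corrected signals keep the order of probes within an array, so the rule on them is no separate check. Same-numbered arrays deviated together at most weakly (correlations from -0.04 to 0.19, most of them above 0). A replicate block gave 2 higher and 7 lower in Tconv cells, and 2 higher and 4 lower in Treg cells, with 0 for cold. Whether a number marks shared mice is not stated. Many negative controls passed the detection p-value, so detection is a weak bound for the dimmest probes.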
